A study of Homo sapiens with 3 samples.

Results

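The clustered replication-dependent histone genes encode the H1, H2A, H2B, H3 and H4 proteins that package newly copied DNA. On the arrays, they were taken as every gene whose name starts with HIST1H, HIST2H, HIST3H or HIST4H, which gave 68 genes out of 27269 gene names, with the brightest of a gene's probes standing for it. They comprised 6 H1, 15 H2A, 19 H2B, 13 H3 and 15 H4 genes, of which 54 belonged to the HIST1 cluster, 10 to HIST2, 3 to HIST3 and 1 to HIST4. All samples were HepG2 cells, an established line from a human hepatocellular carcinoma, that were collected at 30 h, and each condition had 1 array. Control cells received 0 μM etoposide and are described as untreated in the labels. The paper names DMSO as the control of its arrays, so whether these cells received the vehicle is not settled. The low dose was 10 μM and the high dose 100 μM of etoposide, a drug that traps topoisomerase II on DNA and leaves double-strand breaks. The question addressed was how the mRNA of these genes stood in cells given the low dose, which the study used as its senescence condition, and the high dose, which it used as its apoptosis condition.

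Histone supply is coupled to DNA replication. The genes of the clusters are transcribed mainly in S phase under NPAT, and their mRNAs lack introns and end not in a poly(A) tail but in a conserved stem-loop, which the stem-loop binding protein SLBP holds through processing, translation and decay. When replication stops, these mRNAs are quickly degraded. Some genes of the clusters are also known to make polyadenylated transcripts in differentiated or arrested cells, and replacement variants such as H3F3A are made from ordinary polyadenylated mRNAs throughout the cell cycle. The labeling kit named in the labels starts from primers that pair with poly(A), so the arrays read those histone transcripts that this priming copied, and the share of processed, stem-loop-ended mRNA in each signal was not tested.

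The stem-loop was present within the 60-base probes of 4 members. It is shown here because it is the element that sets these mRNAs apart, and the capitals mark the inverted repeat, a 6-base stem around a 4-base loop. The same 16 letters occurred in 5 of 34127 probe sequences of the array (0.0147%), and the fifth was listed under an Ensembl transcript name with no gene symbol.
HIST1H2AI: aaccaaaGGCTCTTTTCAGAGCCaccta
HIST1H2BE: acccaaaGGCTCTTTTCAGAGCCactca
HIST1H3H: acccaaaGGCTCTTTTCAGAGCCaccca
HIST2H3A: tccaaaaGGCTCTTTTCAGAGCCacc
The flanks differed between genes by a few letters, whereas the capital letters were the same by the way they were searched. The probe of HIST1H3H that holds it is the dimmer of the gene's 2 probes.

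Signals are given as the processed intensity of a probe on each array, before scaling. Differences are on the log2 scale after each array was set relative to its 75th percentile, and signals of different probes were not compared with each other as RNA amounts. This percentile was 514, 537 and 433 in the order control, low dose and high dose, and no saturated spots were flagged. A difference was counted when it passed 2-fold and the brighter of the 2 signals was well above background by the scanner software. A dimmer signal below the detection level, which was 19.5, 22.7 and 21.6 on the 3 arrays, was first raised to that level, so that the fold is a lower bound. The SD between repeated spots of 1 array was 0.0475 to 0.0531 on the log2 scale for signals between 300 and 1000. It covers hybridization within an array and not the spread between cultures, and no p-value can be given with 1 array per condition. The 3 arrays lay on 1 slide, and dose, culture and array cannot be told apart. All 8 hepatocyte or HepG2 markers examined (including AFP, APOA1 and ALB) were well above background on every array, whereas the fibroblast collagens COL1A1 and COL1A2 were not on any. The third fibroblast marker, PDGFRB, read 95.6, 67.0 and 22.5 on the control, low-dose and high-dose arrays and was detected on the first 2. All 3 leukocyte markers and both endothelial markers were detected on every array, with CD14 at 521, 1184 and 1847, PTPRC at 257, 131 and 288, CD3E at 46.8, 34.6 and 52.9, PECAM1 at 473, 298 and 286 and CDH5 at 47.9, 52.9 and 41.6. The bearing of these markers on the histone signals was not tested. Because whole cultures were lysed, fewer cells of a kind and less RNA per cell cannot be told apart.

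Most members were detected in HepG2 cells. Detection on every array, meaning well above background, was found for 57 of the 68 genes, including all 13 H3 genes, and 6 were detected on none, namely HIST1H1T (the testis H1), HIST1H4G, HIST2H2BA, HIST2H4A, HIST3H2A and HIST4H4. The probes of HIST2H2BA, whose current symbol H2BP1 is that of a pseudogene, and of HIST2H4A have no genome position in the array files. For these, the lack of signal describes the probe and not necessarily the gene. HIST1H1B and HIST1H2AL were no longer detected at the high dose, and HIST1H1A, HIST1H2BA and HIST1H2BE were detected only there. The brightest member was the H4 gene HIST1H4C, whose signals in control, low-dose and high-dose cells were 159156, 142218 and 29280.

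At the low dose, the histone genes as a group stood slightly below control cells. The median difference of the 68 members was -0.33 on the log2 scale, while the median of all 27269 genes was 0.07, and 55 members were lower, or 54 to 59 under the other scalings. The class medians were -0.43 for H2A, -0.37 for H1, -0.36 for H4, -0.29 for H3 and -0.19 for H2B. More than 2-fold lower was only 1 of the 68 members (1.47%), against 0.964% of all genes, and none was more than 2-fold higher, against 2.06%. Such counts are near those of the array as a whole.

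The member below 2-fold was HIST1H2AB, an H2A gene. With signals of 991, 410 and 85.9 by rising dose, its log2 difference from control was -1.34 (2.53-fold) after 10 μM and -3.28 after 100 μM. The next lowest at the low dose were HIST1H2AK, with signals of 6837, 3778 and 2195 and a low-dose difference of -0.92, and HIST1H2BB, with 567, 315 and 139 and a difference of -0.91. All of them descended with dose. The highest among detected members were HIST2H3A (0.26), HIST2H2BE (0.25) and HIST3H2BB (0.20), none of them from the HIST1 cluster. Their spot SDs were 0.06, 0.17 and 0.32, so the value of HIST3H2BB lies within its spot SD. In the HIST1 cluster 48 of 54 members were lower at the low dose, compared with 5 of 10 in HIST2. Among members detected on all arrays these counts were 46 of 47 and 4 of 8.

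**Figure D1:**
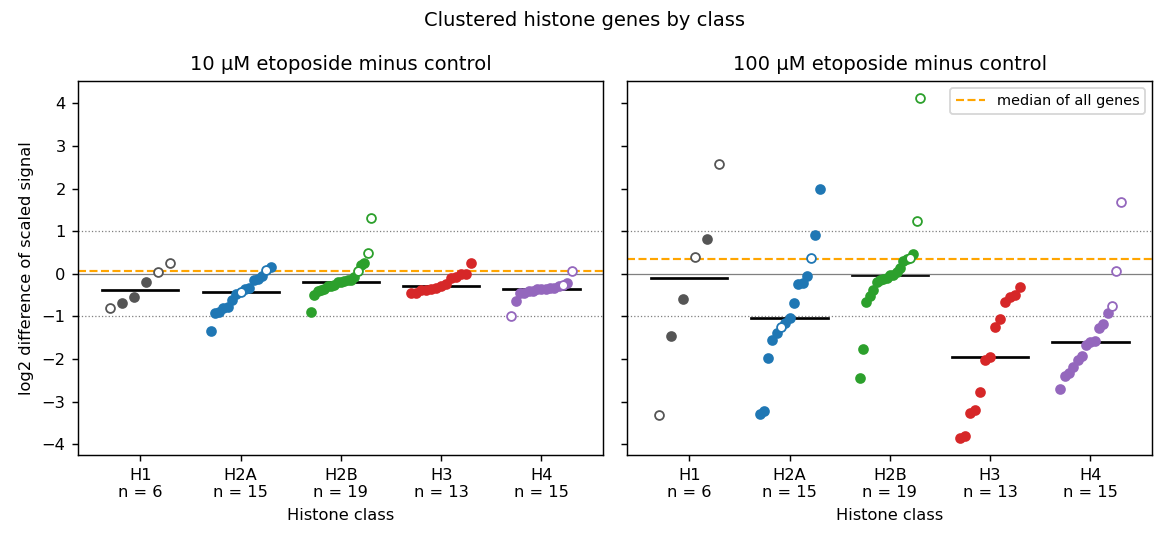
Each point is 1 histone gene, placed by its class on the x axis and its log2 difference of scaled signal from control cells on the y axis, at the low dose (left) and the high dose (right). Open points were not well above background on all 3 arrays, black bars are class medians, the dashed line is the median of all genes and dotted lines mark 2-fold. At the high dose the H3 and H4 medians lie at -1.94 and -1.61, and the H2B median at -0.04.

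At the high dose, the fall was large and unequal between classes. The median difference of the 68 members from control cells was -0.73, whereas that of all genes was 0.35, which placed the members at -1.08 relative to all genes. More than 2-fold lower were 31 members (45.6%), 1 of them by a lower bound, against 2.26% of all genes. More than 2-fold higher were 3 members (4.41%), which is close to the 4.18% of all genes, and 2 of these are lower bounds. Scaling by the median in place of the percentile turned the split of all genes from 1141 higher and 617 lower into 586 and 1181, while that of the members went from 3 and 31 to 3 and 32. Under all 7 scalings the same 30 members were more than 2-fold lower.

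**Figure D2:**
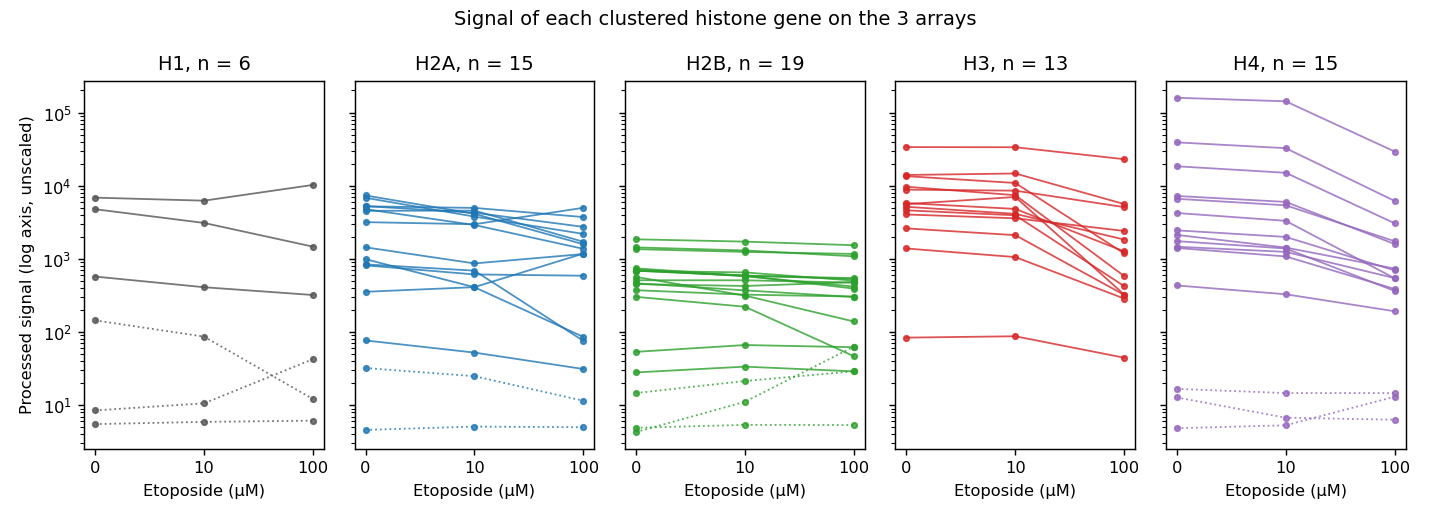
Each line is 1 histone gene, and its 3 points are the processed signals (log axis, before scaling) at 0, 10 and 100 μM etoposide, with 1 panel for each class. Dotted lines are genes not well above background on all arrays. The steep descent from 10 to 100 μM in the H3 and H4 panels, as for HIST1H4C from 142218 to 29280, is not seen in most lines of the H2B panel.

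The H3 genes, whose protein forms the nucleosome core as a tetramer with H4, held the largest falls. All 13 were lower at the high dose, under each scaling and with normexp too. More than 2-fold lower were 9 of them (69.2%), against 2.26% of all genes. HIST2H3A gave 5603, 7015 and 325 by rising dose, a 14.5-fold decrease from control after scaling. HIST1H3B gave 9684, 7416 and 582, a 14.0-fold decrease. Both arrays below the high dose were thus far above it for these genes, and the order of control and low dose differed between them.

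HIST1H3D (13487, 10896 and 1185), HIST1H3F (4606, 3942 and 424) and HIST1H3H (2609, 2110 and 322) had log2 differences of -3.26, -3.19 and -2.77. By contrast, HIST1H3A gave 4043, 3587 and 2407, a difference of -0.50. HIST1H3C gave 8833, 8554 and 5096, a difference of -0.54. The dimmest detected H3 gene, HIST1H3I, gave 83.9, 87.6 and 44.6, a difference of -0.66 with a spot SD of 0.20. H3 genes of the same cluster therefore ranged from -3.81 to -0.50. HIST3H3, which encodes a testis H3, had the brightest probe of the class (33686, 33548 and 23034) and the smallest difference, -0.30. The HIST3H3 probe can be laid over that of HIST2H3D for 40 bases with 85.0% identity and over that of HIST1H3J for 47 bases with 80.85%. How much of the HIST3H3 signal came from the mRNA of other H3 genes was not tested.

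Members with probes of similar sequence could lie far apart or close together. The probes of HIST1H3A and HIST1H3D can be laid over each other for 58 bases with 79.31% identity. Those of HIST1H3F and HIST1H3H overlap for 57 bases with 89.47% identity. Those of the H2A genes HIST1H2AD and HIST1H2AK overlap for 60 bases with 88.33% identity. They are printed to show the letters that separate the probes, and capitals mark the bases that differ within a pair. In 2 pairs the differences at the high dose lay far apart. In HIST1H3F and HIST1H3H, the pair most alike in sequence, they did not.
HIST1H3A: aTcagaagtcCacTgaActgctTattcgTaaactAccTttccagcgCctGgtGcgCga
HIST1H3D: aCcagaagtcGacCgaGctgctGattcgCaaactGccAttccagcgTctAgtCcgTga
HIST1H3F: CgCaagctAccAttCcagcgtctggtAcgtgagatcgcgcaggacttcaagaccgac
HIST1H3H: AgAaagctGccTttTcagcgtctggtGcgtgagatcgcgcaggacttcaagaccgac
HIST1H2AD: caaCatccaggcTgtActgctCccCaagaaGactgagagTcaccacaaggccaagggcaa
HIST1H2AK: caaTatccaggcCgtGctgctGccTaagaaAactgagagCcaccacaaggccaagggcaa
Differences at the high dose were -0.50 and -3.26 in the pair HIST1H3A and HIST1H3D, -3.19 and -2.77 in the pair HIST1H3F and HIST1H3H, and 0.90 and -1.39 in the pair HIST1H2AD and HIST1H2AK. In all, 38 members had a probe that overlapped that of another member over at least 30 bases at 75% identity or more, in 58 pairs, always within a class. The differences of such a pair lay apart by a median of 0.71 on the log2 scale, and by more than 1 in 24 pairs. How much of a signal came from the mRNA of a near copy was not tested, so the value of a gene with such a probe is uncertain.

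The H4 genes, nearly all of which encode the same protein, fell more evenly. Of the 15 genes, 11 (73.3%) were more than 2-fold lower at the high dose, against 2.26% of all genes. The 12 detected members lay between -2.71 and -0.92. HIST1H4D gave 4233, 3312 and 543 and was the lowest, with a 6.57-fold decrease. HIST1H4L gave 39085, 32571 and 6190, a 5.32-fold decrease, and HIST1H4C, given above, decreased 4.58-fold. The dimmest detected H4 gene, HIST1H4F, gave 433, 328 and 192, a difference of -0.92 with a spot SD of 0.09. In the first 3 of these genes most of the fall lay between the low and the high dose, whereas HIST1H4F fell about equally at each step (-0.46 and -0.46).

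The H2A genes spread most widely among detected members. Their median at the high dose was -1.05, or between -1.34 and -0.28 under the alternative settings. Of the 15 genes, 7 (46.7%) were more than 2-fold lower, against 2.26% of all genes. Only 1 (6.67%) was more than 2-fold higher, which is near the 4.18% of all genes. HIST1H2AB, described above, was lowest, followed by HIST1H2AI with 841, 691 and 75.8, a 9.34-fold decrease. HIST2H2AA4 was at the other end, with 355, 411 and 1182, a 3.95-fold increase and the only increase past 2-fold that was measured on both arrays. HIST1H2AD gave 3178, 2974 and 4987, a 1.86-fold increase that did not pass the threshold. The H2A probe with the highest mean log2 signal over the 3 arrays, that of HIST2H2AB, gave 5225, 4970 and 3727, a difference of -0.24. HIST1H2AL, the dimmest detected H2A gene, gave 32.2, 24.9 and 11.5 and was above background in control cells only.

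The H2B genes, whose protein pairs with H2A in the nucleosome, stayed nearest to control. Their median at the high dose was -0.04, and it lay between -0.33 and 0.03 under the alternative settings, so it has no settled sign. Of the 19 genes, 2 (10.5%) were more than 2-fold lower, against 2.26% of all genes, whose median was 0.35. HIST1H2BF gave 303, 222 and 46.8, a 5.45-fold decrease, and HIST1H2BB decreased 3.42-fold. The other detected H2B genes of the HIST1 cluster lay between -0.67 for HIST1H2BM and 0.34 for HIST1H2BC, as did the brightest, HIST1H2BL, with 1851, 1721 and 1537 and a difference of -0.02. HIST1H2BD and HIST1H2BK, whose probes share 92.73% of a 55-base overlap, had signals that nearly matched on every array, with 690, 591 and 531 for the former and 690, 589 and 546 for the latter. Their sequences follow, with the differing bases in capitals.
HIST1H2BD: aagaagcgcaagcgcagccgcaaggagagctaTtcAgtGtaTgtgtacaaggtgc
HIST1H2BK: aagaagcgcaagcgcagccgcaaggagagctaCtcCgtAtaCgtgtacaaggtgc
HIST1H2BA, which encodes a testis H2B, was below background on the control and low-dose arrays and read 63.1 on the high-dose array, an increase of at least 3.84-fold over control. HIST1H2BE, also detected only at the high dose, read 14.7, 21.4 and 29.1, which as a bound does not reach 2-fold.

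The 6 linker histone genes of class H1 went different ways. HIST1H1B, which encodes H1.5, read 144, 86.7 and 12.1 by rising dose, and the last of these is below background, so its decrease was at least 5.62-fold. HIST1H1E gave 4773, 3098 and 1469, a 2.73-fold decrease, and HIST1H1D gave 573, 410 and 321, a difference of -0.59. HIST1H1C, which encodes H1.2 and had the brightest H1 probe, gave 6868, 6243 and 10250, a 1.77-fold increase. HIST1H1A was detected at the high dose alone, at 42.7, an increase over control of at least 2.60-fold. The H1 median of -0.09 lay between -0.59 and 0.02 under other settings.

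The high dose was also compared with the low dose, which shares an array with each of the comparisons above. Against the low dose 23 members (33.8%) were more than 2-fold lower, where 2.24% of all genes were, and 5 (7.35%) were more than 2-fold higher, where 2.42% of all genes were. Those higher were HIST1H1A and HIST1H2BA by lower bounds, HIST2H2AA4 (1.83 on the log2 scale), HIST1H2AD (1.06) and HIST1H1C (1.03). The last 2 sat just past the threshold, and without scaling the split of the members was 2 higher and 28 lower. The lowest were HIST2H3A (-4.12), HIST1H3B (-3.36) and HIST1H3F (-2.91). All 13 H3 genes were again lower, and the H2B median was 0.16, with a range of -0.15 to 0.22 over other settings.

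The HIST1 cluster lies on chromosome 6. By the hg18 positions of the probes, it fell into a block of 34 members from chr6:25834542 to 26393535 and a block of 20 members from chr6:27208297 to 27969626. The starts of the 2 probes on either side of the gap lay 814821 bases apart. The median difference at the high dose was -0.76 in the former and -1.34 in the latter, but among genes detected on all arrays it was -1.24 and -1.34. Within a class, the blocks differed less for H3 (-1.94 and -2.03), H4 (-1.97 and -1.65) and H2B (-0.13 and -0.05) than for H2A (-0.22 in 5 genes and -1.47 in 6).

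**Figure D3:**
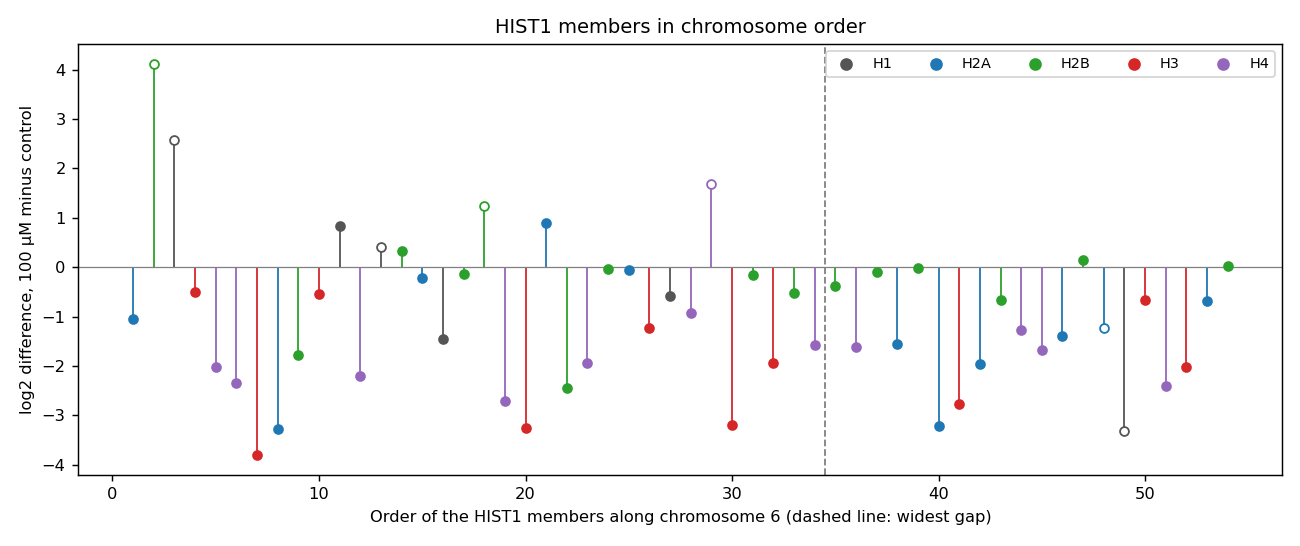
The 54 HIST1 genes are placed on the x axis in their order along chromosome 6, each with its log2 difference of scaled signal between the high dose and control cells on the y axis, colored by class. Open points were not well above background on all arrays, and the dashed line marks the gap between the blocks of 34 and 20 genes. Genes with large falls and genes near 0 alternate along both blocks.

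H2A and H2B genes often lie side by side in opposite directions and can share the sequence between them. Of 11 such neighbors within 2500 bases, 9 pairs had both genes well above background on all arrays. In 8 of these 9 the H2A gene was the lower at the high dose, with a median of -1.30 for H2A minus H2B. For HIST1H2AE and HIST1H2BG the gap was -0.02, within their spot SDs of 0.07 and 0.08. In the pair of HIST1H2AC (-0.22) and HIST1H2BC (0.34), the order depends on the probe, as another HIST1H2AC probe gave 2.84. The widest such gap was that of HIST1H2AI and HIST1H2BL, 1100 bases apart, at -3.22 and -0.02. The exception was HIST1H2AD (0.90) and HIST1H2BF (-2.45), which are 1070 bases apart by their probes. Neighbors thus could differ by more than 3 on the log2 scale, in either direction.

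Outside HIST1, the HIST2 genes on chromosome 1 spanned the whole range. HIST2H3A and HIST2H2AA4 were the lowest and the highest of the measured members, respectively. HIST2H3D gave 14009, 14683 and 5612, a 2.10-fold decrease, and HIST2H2AC gave 4536, 4570 and 1713, a 2.23-fold decrease. HIST2H4B gave 1466, 1247 and 546, a 2.26-fold decrease. HIST2H2BE (53.6, 66.5 and 62.1) and HIST2H2BF (687, 653 and 505) did not pass 2-fold in either direction. Of HIST3, HIST3H2BB gave 28.1, 33.7 and 29.0, and HIST3H2A stayed below background, as did HIST4H4, HIST2H4A and HIST2H2BA. Among these genes, those of H3 and H4 that were detected in HIST2 all fell past 2-fold, whereas the H2A and H2B genes were mixed.

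For 10 members the array carried more than 1 probe, and in 6 of the 8 with at least 2 informative probes the probes differed by more than 1 on the log2 scale in their change at the high dose. With readings below background raised to the detection level, this held for 5, since the gap of HIST2H2BE was then 0.73. HIST1H2AC had 3 probes. The brightest (815, 613 and 589) and a neighbor that starts 58 bases from its start (207, 157 and 136) gave -0.22 and -0.36. A probe 14361 bases further along, at chr6:26246801-26246860 and listed under an Ensembl transcript, gave 149, 196 and 894, a difference of 2.84. The distance and the value set this probe apart from the others of the gene.

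HIST2H2BE and HIST2H2BF resembled it. A dimmer probe of HIST2H2BE, on the minus strand at chr1:148123688-148123747 and so 1037 bases downstream of the brighter probe, read 4.82, 5.44 and 37.5. Only the high-dose reading was above background. A dimmer probe of HIST2H2BF, under another RefSeq accession (147663744 to 147663803 of chromosome 1), read 5.79, 8.16 and 37.4 and likewise was detected at the high dose alone. These increases were at least 2.28-fold for either probe, against log2 differences of 0.46 and -0.19 for the brighter probes. Which probe of a gene was read thus decided whether these 3 genes passed 2-fold upward.

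Where both probes fell, the size still varied. HIST1H3H gave -2.77 with its brighter probe and -0.71 with the one that reaches the stem-loop (173, 96.7 and 89.1). HIST1H2AM gave -0.69 with its brighter probe (5256, 4271 and 2739) and -1.82 with its dimmer one (1277, 1023 and 304). HIST1H4D gave -2.71 and -1.69. Probes of HIST1H4K differed by 0.07 only.

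**Figure D4:**
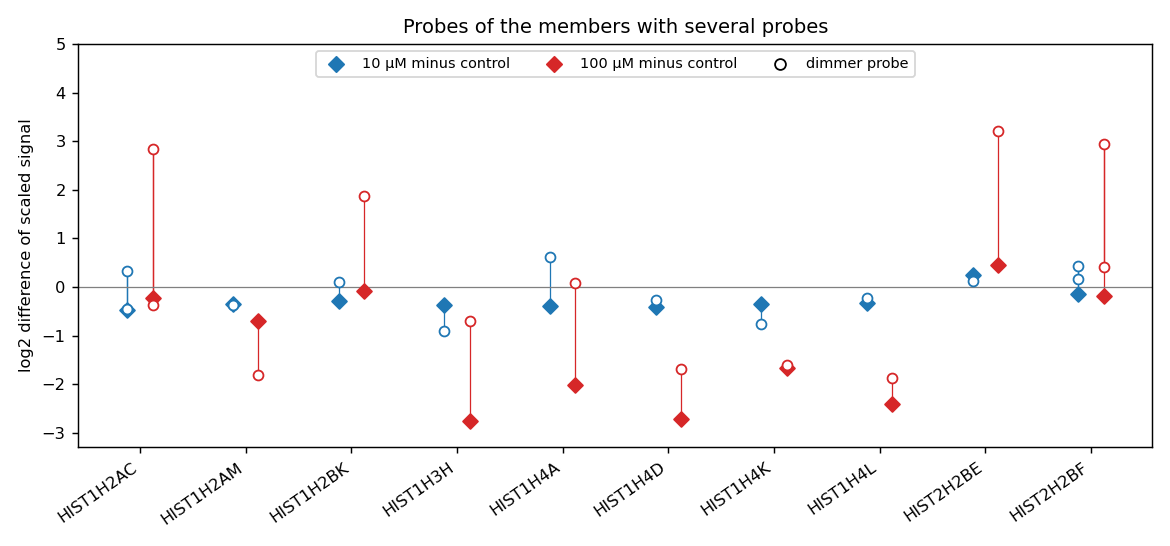
For the 10 genes with several probes (x axis), the log2 difference of scaled signal from control cells (y axis) is drawn for each probe, at the low dose in blue and the high dose in red. Diamonds are the brightest probe of the gene and open circles its dimmer probes, including ones below background, and no floor is applied. Dimmer probes of HIST1H2AC, HIST2H2BE and HIST2H2BF lie near 3 at the high dose, whereas their diamonds lie between -0.22 and 0.46.

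Promoters were examined for the short elements known from histone genes, since the classes differed in their medians. A RefSeq promoter (GRCh38.p14) was found for 62 of the 68 genes, and both strands of the 250 bases before the start were searched for 4 sets of letters. The octamer ATTTGCAT, which Oct-1 (POU2F1) binds, was present in 14 of 18 H2B and 10 of 14 H2A promoters, in 1 of 11 H3 promoters and in none of the 13 H4 and 6 H1 promoters, and in 1.66% of all 27305 promoters. The H1 box AAACACA was present in all 6 H1 promoters and in none of the other classes, against 4.95% of all promoters. CCAAT was in all 49 H1, H2A, H2B and H3 promoters found but in 3 of 13 of H4, against 33.0% of all promoters. TATAAA was in 40 of the 62, against 11.1% of all.

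The last 150 bases before the start are printed for a gene each of H3, H4, H2B and H1, with the matched letters of either strand in capitals, to show how the classes differ.
HIST1H3B (chr6:26032100-26032249, minus strand): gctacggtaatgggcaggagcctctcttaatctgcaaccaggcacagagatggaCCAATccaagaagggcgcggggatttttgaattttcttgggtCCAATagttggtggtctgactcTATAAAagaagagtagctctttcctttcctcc
HIST1H4B (chr6:26027284-26027433, minus strand): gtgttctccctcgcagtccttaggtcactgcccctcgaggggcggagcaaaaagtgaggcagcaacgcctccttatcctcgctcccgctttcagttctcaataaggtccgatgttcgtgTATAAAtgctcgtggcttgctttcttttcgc
HIST1H2BK (chr6:27146859-27147008, minus strand): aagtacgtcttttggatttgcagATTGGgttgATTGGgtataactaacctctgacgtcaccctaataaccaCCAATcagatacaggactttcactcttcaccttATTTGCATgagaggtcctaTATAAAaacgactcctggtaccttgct
HIST1H1C (chr6:26056471-26056620, minus strand): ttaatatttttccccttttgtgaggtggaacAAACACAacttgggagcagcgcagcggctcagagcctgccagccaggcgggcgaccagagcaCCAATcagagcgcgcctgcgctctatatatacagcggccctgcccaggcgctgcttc
Of these genes, HIST1H3B was 14.0-fold lower at the high dose and HIST1H4B, with signals of 18421, 15022 and 3064, was 5.06-fold lower. HIST1H2BK and HIST1H1C were at -0.09 and 0.83. Values of the H2A and H2B genes with and without the octamer are given as a description, since few genes lacked it. After 100 μM, the 10 H2A genes with it had a median of -0.87 and the 4 without it -0.51, and the H2B medians were -0.12 for 14 genes and 0.06 for 4.

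The genes of the machinery that makes and removes histone mRNA are given next. A list of 21 genes for transcription, 3′ end processing and decay had medians of 0.12 and -0.34 at the low and high dose, and none passed 2-fold between the high dose and control cells. Between the high and the low dose its median was -0.46, against -0.44 for the histone genes. Among genes detected on all arrays, these medians were -0.39 and -0.64. In this comparison 4 genes of the list (19.0%) were more than 2-fold lower, namely CASP8AP2, ERI1, CDK2 and CCNE2. That share was 33.8% for the histone genes and 2.24% for all genes. SLBP gave 2345, 3158 and 1335, which is 0.37 and -0.56 relative to control. CASP8AP2 (FLASH), which joins NPAT at histone genes and takes part in processing, gave 89.8, 126 and 45.9, with 0.42 and -0.72. NPAT was well above background at the low dose only, at 43.2. These 3 genes had their highest signal at the low dose, where 55 of the 68 histone genes were below control.

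Of the same list, CCNE2, a cyclin E gene whose kinase activates NPAT, gave 47.5, 138 and 30.4 and was the only gene past 2-fold at the low dose (1.48). The other highest at the low dose were NPAT (0.74) and ERI1 (0.70), an exonuclease of histone mRNA decay, and the lowest were CPSF2 (-0.65, below background), PNPT1 (-0.25) and a pair at -0.19, LSM10 and POU2F1. After 100 μM, SYMPK (0.30) was highest, followed by CPSF2 and LSM1 (both 0.18), and LSM11 (-1.84, below background on all arrays), CASP8AP2 and POU2F1 (-0.70) were lowest.

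Histone chaperones, which carry new histones to DNA, were all lower at the high dose, with a median of -0.70 over 13 genes. Of these, 6 (46.2%) passed 2-fold, against 2.26% of all genes. CHAF1A gave 2154, 4380 and 537 and CHAF1B 1073, 2147 and 285, both subunits of the assembly factor CAF-1, with 0.96 and 0.94 at the low dose and -1.76 and -1.66 at the high dose. ASF1B gave 526, 1293 and 171 and passed 2-fold upward at 10 μM (1.24) and downward at 100 μM (-1.37). The smallest falls were those of NAP1L4 (-0.07), HIRA (-0.29) and RBBP7 (-0.32). At the low dose the lowest were ASF1A (-0.46), SSRP1 (-0.29) and NAP1L1 (-0.22).

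The histone variants encoded outside the clusters had a median of -0.61 at the high dose, with 10 of 11 lower. The medians of the clustered classes were -1.94 for H3, -1.61 for H4, -1.05 for H2A, -0.09 for H1 and -0.04 for H2B. By these medians the variants fell less than H3, H4 and H2A and more than H1 and H2B. The order against H1 rests on genes that were not detected on every array. Among genes detected on all arrays the H1 median was -0.59 in 3 genes, close to that of the 11 variants, all detected. The H2B median among such genes was -0.11 in 16 genes. Of 11 on the array, 3 (27.3%) were more than 2-fold lower at the high dose, against 2.26% of all genes. CENPA, the centromeric H3, gave 664, 588 and 62.0, a difference of -3.17, and H2AFZ and H2AFX had -1.36 and -1.23. The H3.3 genes H3F3A and H3F3B were at -0.39 and -0.30. H2AFJ (2255, 2407 and 2987) was the only variant that was higher, by 0.65. H1F0, the linker histone of resting cells, gave 7945, 4407 and 4384, with differences of -0.91 and -0.61. At the low dose, H2AFX (0.51), H2AFY2 (0.14) and H2AFY (0.09) were highest, and CENPA (-0.24) and H3F3A (-0.22) were next to H1F0 at the low end.

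S phase genes serve DNA synthesis, with which histone mRNA is coordinated. Of 24 such genes (CCNE2 is in both lists), all were higher at the low dose, with a median of 0.71. Past 2-fold were 5 (20.8%), against 2.06% of all genes, led by PCNA (2.06), CCNE2 and CDC6 (1.30). After 100 μM, 23 of 24 were lower, with a median of -1.72. More than 2-fold lower were 20 (83.3%), against 2.26% of all genes. GINS2 (-2.70), MCM2 (-2.22) and E2F1 (-2.12) were lowest, and PCNA (0.45), CCNE2 (-0.40) and TYMS (-0.57) were highest. Side by side, the histone genes were at -0.33 and -0.73 in the same comparisons, on the same arrays. The difference between the lists was not tested, as 1 array per condition does not allow it.

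**Figure D5:**
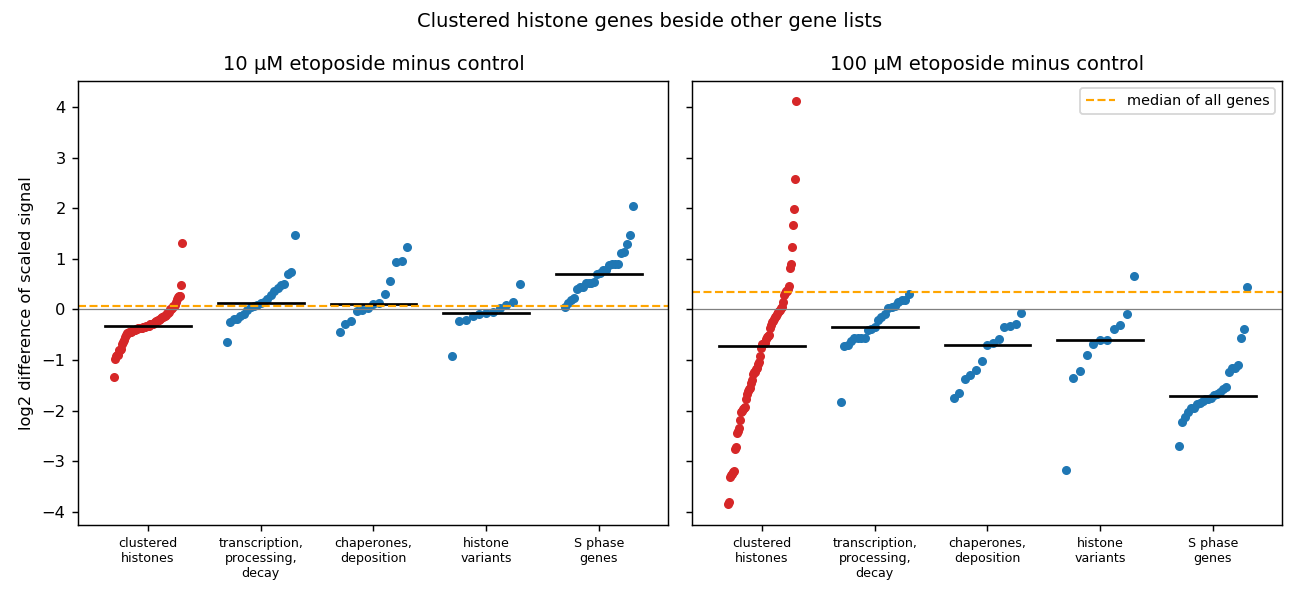
The log2 difference of scaled signal from control cells (y axis) is shown for each gene of 5 groups (x axis) at the low dose (left) and the high dose (right). Black bars are medians and the dashed line is the median of all genes. At the low dose the S phase genes have a median of 0.71 and the clustered histone genes of -0.33, and at the high dose both medians are below 0, at -1.72 and -0.73.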

How the data were processed

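RNA of HepG2 cells was amplified, labeled with Cy3 and read on 1-color Agilent arrays, with 1 array for each of the 3 etoposide doses. The authors deposited the scanner output of Feature Extraction 10.7.3.1 (version per the labels), from which the processed intensity of each spot, background-subtracted within the array, was used. The deposited series table held the same intensity values for all 44495 spots. The paper gives fold thresholds by which it selected genes from the arrays. A normalization between arrays and a filter on dim probes are not given in the sources used here.

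Intensities were turned into log2 values, averaged over the spots of a probe without outlier spots, and divided, as a difference of logs, by the 75th percentile over the 34118 non-control probes that had a value on every array. Gene names and hg18 positions are those of the array files. Current symbols, used for the match to promoters, came from RefSeq tables. The spread between spots was taken from the 50 repeated probes nearest in signal. Steps were tested on simulated data. Members, gene lists and motifs were chosen with earlier results of these data known. Genes named in full are the 3 highest and 3 lowest members per comparison among those detected on both arrays, the brightest and dimmest detected member of each class, all members outside HIST1, members with discordant probes and members with a lower bound past 2-fold, and in other lists the 3 highest and 3 lowest with SLBP, NPAT, CASP8AP2 and H1F0. Other genes were named after their values were seen.

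Alternatives were no scaling, median, quantile, spike-in and 2 other percentile scalings, normexp background correction (offset 50, limma 3.58.1 in R 4.3.3), other filters, the mean over probes, outlier spots kept, the series table, and thresholds of 1.5-fold and 3-fold. Python 3.11.15, pandas 2.3.3, numpy 2.4.6 and matplotlib 3.10.9 were used.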

Additional observations from a re-analysis of the deposited data

How the results depend on the processing

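No paired analysis was possible because there was a single array at each dose, which also left no array to leave out and no slide or replicate block to fit. Among 1164 values of 33 named genes under 12 alternatives, 253 moved by more than their spot SD and no called value changed sign. Alternatives that changed only the filter, and the series table with its equal values, could not move a gene's difference. Their values were thus unmoved by construction and say nothing about stability. Among 324 medians of classes and lists, 82 moved and no median past 2-fold changed sign. The series table and the setting without a filter could not move these medians either.

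The median of the members at the high dose over control was -0.98 without scaling, -1.02 with median scaling, -0.96 with quantile normalization, -0.90 with spike-in scaling, -0.57 with normexp, -1.07 among the 57 genes detected on all arrays and -0.84 with the mean over probes. In the same comparison the count more than 2-fold higher was 1 among genes detected on all arrays, 5 without a filter and 5 with the mean over probes, and it was 6 at a threshold of 1.5-fold. Over the low dose, the median was -0.75 without scaling, -0.70 with median scaling, -0.66 with spike-in scaling, -0.29 with normexp and -0.64 among genes detected on all arrays. The count higher was 2 without scaling, with median and with spike-in scaling and at 3-fold, 1 with normexp, and 3 among genes detected on all arrays. At the low dose over control, 1 member was higher without a filter, and 10 were lower at 1.5-fold and 0 at 3-fold. At the high dose, these scalings moved the median of all genes from 0.35 to between -0.01 and 0.41. Relative to it the members lay at -1.08, or -0.95 with quantile normalization. Every scaling but the quantile one subtracts a single constant per array, so the -1.08 could not change among them. Signals near 20 had a spot SD above 0.2, which limits the dimmest members.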

Other observations

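Across the 57 members detected on all arrays, the difference at the high dose had a Pearson r of 0.20 (Spearman 0.20) with the GC content of the probe and -0.24 (Spearman -0.25) with the mean level of the probe. Within classes, r with GC content was 0.41 for H2A (13 genes), 0.49 for H2B (16), 0.00 for H3 (13) and 0.38 for H4 (12), and the Spearman values were 0.43, 0.49, -0.25 and 0.55. With the mean level r was 0.18 for H2A, 0.06 for H2B, 0.10 for H3 and -0.64 for H4, and the Spearman values were 0.15, -0.06, 0.29 and -0.69. The mean level includes the high-dose array and so is not independent of the difference. The points share 3 arrays, and many share probe sequence, so these are descriptions. The GC content of the probes had a median of 55.0% for the H3 probes and 53.3% for both the H2B and the H4 probes.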
